A study of Mus musculus with 11 samples.

Results

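The nuclear-encoded subunits of the oxidative phosphorylation complexes were followed over time in the hippocampus of mice given intranasal insulin. The 59 genes were taken by symbol from a table of 46202 gene rows: 27 subunits of complex I, 7 of complex III, 11 of complex IV and 14 of complex V, the ATP synthase, which the table lists under the older Atp5 names. All 59 had a value in each of the 11 libraries. The mice were males of the strain labelled C3-C57B1/6J, 2 to 3 months old and housed singly, and hippocampus was taken 15 min, 1 h or 6 h after 2.4 IU of insulin per nare, or after saline. Insulin was represented by 2 libraries at 15 min, numbered 1 and 3 (number 2 was not analysed here), by 3 libraries at each of the later times, and saline by 3. The controls are saline-treated by title but carry the treatment label Untreated with a time of 0 min, so 1 control time serves all 3 insulin times. Whether a library is a single animal is not spelled out in the labels, and the p-values reflect only how far these libraries spread.

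Complexes I, III and IV pass electrons from NADH to oxygen and pump protons across the inner mitochondrial membrane, and complex V uses the proton gradient to make ATP. Most of their subunits are encoded in the nucleus, made in the cytosol and imported, while a small core is encoded by mitochondrial DNA. In the brain this pathway supplies most of the ATP that neurons spend on ion pumping and synaptic transmission.

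Several of these genes have intronless copies elsewhere in the genome that are nearly identical in sequence, and the copies have table rows of their own. Stretches at or near the start of 3 open reading frames are shown. Each is the window of the aligned frame, without gaps, in which gene and copy differ at the most bases. Each run is 90 bases of GENCODE transcript sequence on build GRCm38, 5′ to 3′, with capitals where gene and copy differ; all 6 loci are on the minus strand. Ndufs3 spans chr2:90894627-90904721 and its copy Gm12251 chr11:58392687-58393575. Atp5h spans chr11:115415691-115419919 and its copy Gm10250 chr15:5120602-5121172. Atp5o spans chr16:91925223-91931630 and its copy Gm5436 chr12:84258277-84258989; the stretch shown for this pair is bases 16 to 105 of the frame.
Ndufs3: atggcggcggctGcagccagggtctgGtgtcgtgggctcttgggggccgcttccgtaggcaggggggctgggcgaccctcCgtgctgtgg
Gm12251: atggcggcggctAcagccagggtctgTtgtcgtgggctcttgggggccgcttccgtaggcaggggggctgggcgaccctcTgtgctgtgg
Atp5h: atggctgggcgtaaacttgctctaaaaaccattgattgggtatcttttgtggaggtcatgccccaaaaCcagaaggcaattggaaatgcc
Gm10250: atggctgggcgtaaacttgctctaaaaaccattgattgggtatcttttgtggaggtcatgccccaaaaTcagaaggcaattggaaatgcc
Atp5o: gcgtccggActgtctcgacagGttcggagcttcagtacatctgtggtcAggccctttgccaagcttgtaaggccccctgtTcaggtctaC
Gm5436: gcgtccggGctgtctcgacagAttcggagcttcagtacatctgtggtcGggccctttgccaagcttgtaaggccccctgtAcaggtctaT
Ndufs3 and Gm12251 differ at 3 of these bases, Atp5h and Gm10250 at 1, and Atp5o and Gm5436 at 5. Over their whole alignments, of 792, 485 and 643 bases in that order of pairs, identity was 98.6%, 99.0% and 97.0%. Atp5l and its copy Gm10221 were identical over all 309 aligned bases.

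None of the 59 subunits passed the test in any comparison (limma, Benjamini-Hochberg adjusted p under 0.05 over all rows tested). At 15 min that was 0 of 59 members, where 0.239% of all rows tested passed; 11 members had an unadjusted p under 0.05, all lower after insulin. At 1 h it was 0 of 59 where 0.877% of all rows passed, and 15 members had an unadjusted p under 0.05, again all lower. At 6 h it was 0 of 59 where 0% of all rows passed, with 4 members at an unadjusted p under 0.05, all lower. Between insulin 6 h and insulin 1 h it was 0 of 59 where 0.0108% of all rows passed, and no member, 0 of 59, had an unadjusted p under 0.05. In the F test over the 3 times against saline it was 0 of 59 where 0.365% of all rows passed, with 9 members at an unadjusted p under 0.05. As shares of 59, the members with an unadjusted p under 0.05 and a lower mean made up 18.6% at 15 min, 25.4% at 1 h and 6.78% at 6 h, against 13.2%, 12.8% and 4.23% of all rows. For the F test the share was 15.3%, against 14.4% of all rows. These counts rested on the scaling: with each library centred on the median of its kept rows, 1 member at 15 min, 4 at 1 h, 1 at 6 h and 1 in the F test had an unadjusted p under 0.05 in either direction, and with cyclic loess scaling 9, 13, 3 and 2 did. The shares of all rows were not counted under these scalings, so these counts cannot be set against the whole table. None of the 59 had an unadjusted p under 0.05 with a higher mean in any of these comparisons, where 1.86% of all rows did at 15 min, 2.87% at 1 h, 2.75% at 6 h and 8.91% between insulin 6 h and insulin 1 h. In bulk tissue, fewer cells of a type and less RNA per cell cannot be told apart.

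Relative to saline, most members had lower means on the deposited log2 scale, and so did most rows of the table. The mean was lower than in saline for 57 of 59 members at 15 min, 49 at 1 h and 47 at 6 h, while 68.7%, 66.8% and 57% of all rows were lower. Over the members, the median log2 change came to -0.16 at 15 min, -0.13 at 1 h, and then -0.10 at 6 h. The median over all rows was -0.14, -0.11 and -0.04 at the same times, so the members' median lay 0.02, 0.03 and 0.06 log2 units under it. Without saline replicate 2 it lay 0.01 above at 15 min and 1 h and differed by -0.01 at 6 h. The counts depended on the scaling: with each library centred on the median of its kept rows, 27 of 59 members were lower at 15 min, 30 at 1 h and 45 at 6 h, where 46.4%, 46% and 51.6% of all rows were. With cyclic loess scaling 53, 48 and 46 of 59 were lower, where 49.6%, 50.1% and 51% of all rows were. Between insulin 6 h and insulin 1 h, 21 of 59 members were lower on the deposited scale, where 37.1% of all rows were. With centred libraries 49 of 59 were lower, where 54.3% of all rows were, and with cyclic loess scaling 22 of 59, where 50.2% were.

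**Figure D1:**
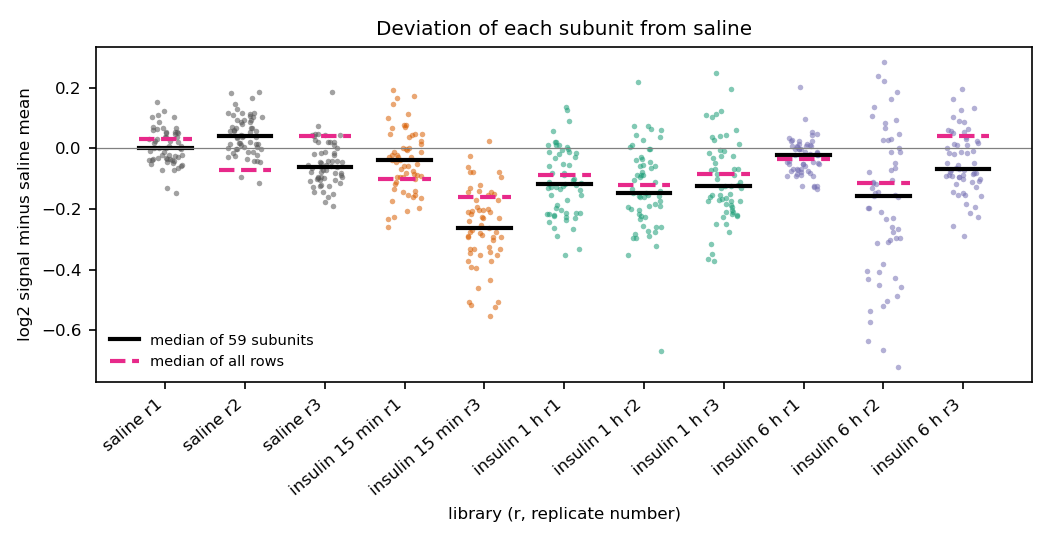
Each point is 1 of the 59 subunits in 1 library, as log2 signal minus the mean of the saline libraries (for a saline library, the mean of the other saline libraries); black bars are the medians of the subunits and dashed bars the medians of all rows. The subunits' median was lowest in 15 min replicate 3, at -0.26, and highest in saline replicate 2, at 0.04.

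In the plot of deviations by library, 15 min replicate 3 stood apart by its median. By the number of members at their lowest of the 11 values, 2 insulin libraries stood apart, this one and 6 h replicate 2. In 15 min replicate 3 the members' median lay 0.26 log2 units under the saline mean with 58 of 59 members below it, and this library held the lowest of the 11 values for 30 members, where it held the lowest for 19% of all rows. The other 15 min library had a members' median of -0.04. The 1 h libraries were close to each other, with members' medians of -0.12, -0.15 and -0.13. At 6 h the medians were -0.02, -0.16 and -0.07, so that of 6 h replicate 2 was close to the 1 h libraries. This library held the lowest value for 18 members, where it held the lowest for 21.3% of all rows. It also held the highest value for 8 members, so its members lay on both sides. In 6 h replicate 2 the members' deviations went with the GC content of their longest transcripts (Pearson's r = 0.52, Spearman's rho = 0.44 across 59 genes, which share the library; r = 0.35 across 20480 rows): the 30 members richest in GC had a median of -0.11 and the other 29 of -0.23. In 15 min replicate 3 they went weakly with transcript length (r = 0.32 across the members, 0.20 across all rows). Without 15 min replicate 3, the members' median at 15 min lay 0.06 above the median of all rows instead of 0.02 below it.

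Cell markers also differed between libraries. The pericyte list of 6 genes had a median deviation of -0.39 and -0.57 in the 15 min libraries, -0.37, -0.24 and -0.51 in the 1 h libraries, and 0.00, -0.46 and -0.19 in the 6 h libraries, where the saline libraries gave 0.26, -0.21 and -0.12. The endothelial list ran from -0.54 to 0.01 in insulin libraries and from -0.31 to 0.48 in saline libraries, and the neuron list from -0.18 to 0.12 and from -0.13 to 0.05. The choroid plexus marker Ttr ran from -0.73 to 6.98 in insulin libraries and from 5.22 to 5.85 in saline libraries, lowest in 6 h replicate 2. Its list of 6 genes had median changes of 0.37 at 15 min, -0.93 at 1 h and -2.25 at 6 h. The striatum list of 7 genes had median changes of 0.57, 0.54 and 0.51, with 1, 2 and 2 of the 7 lower. No gene of these lists passed (limma, adjusted p under 0.05). Hippocampal Prox1, a granule neuron transcription factor, had log2 signals of 0.13 to 1.10 over all libraries. It had 0.73, 0.81 and 0.82 after saline and 0.55, 0.13 and 0.54 at 1 h. The dentate granule neuron list of 6 genes had median changes of -0.02 at 15 min, -0.59 at 1 h and -0.31 at 6 h. Of the 6, 3, 5 and 4 were lower at these times, and none passed (limma, adjusted p under 0.05). The pyramidal marker Neurod6 ran from -2.07 to 2.55. Both ends of the Neurod6 range were saline libraries, replicates 2 and 3. Wfs1, another hippocampal marker, ran from -0.60 to 0.22. The row of the 18S ribosomal RNA repeat Rn18s-rs5, chosen after its values were seen, ran from 9.67 to 12.19 in insulin libraries and from 13.05 to 16.00 in saline libraries. The part of these markers and of ribosomal RNA in the subunits' values was not tested.

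**Figure D2:**
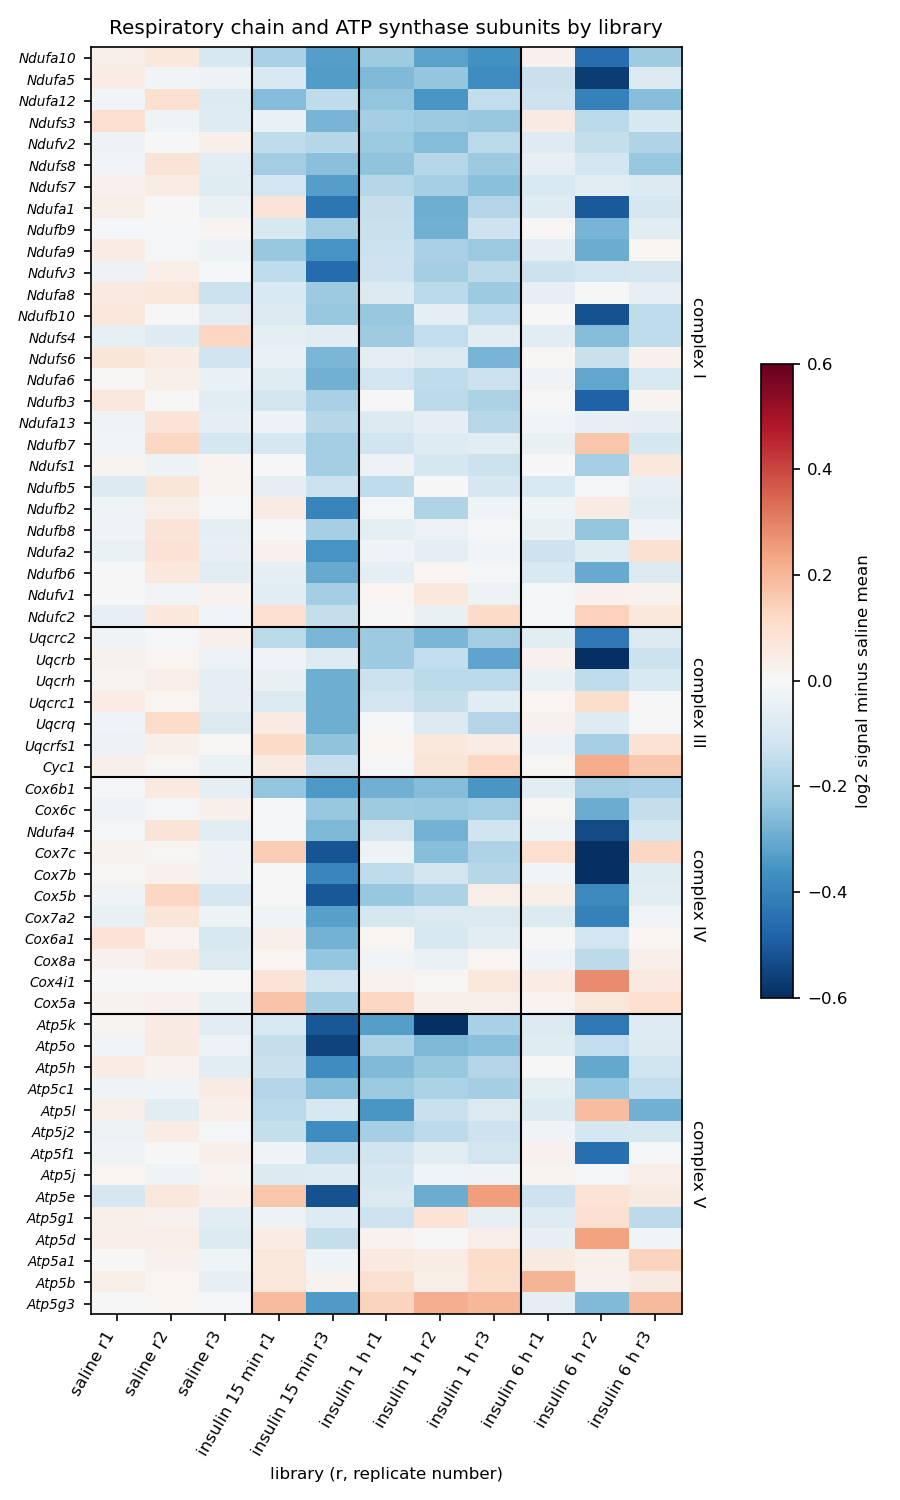
Log2 signal minus the saline mean for the 59 subunits (rows, by complex and ordered within it by the change at 1 h) in the 11 libraries (columns); colours end at 0.6 log2 units either way. Most of the darkest blue cells are in 15 min replicate 3 and 6 h replicate 2, with Atp5k in 1 h replicate 2 as dark, and Atp5a1 and Atp5b at the foot of complex V are pale in every library.

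The subunits varied little between libraries of a group. Their residual SD had a median of 0.10 log2 units, against 0.25 over all rows tested, and ran from 0.03 for Atp5j, the F6 stator subunit, to 0.32 for Cox7c, a small membrane subunit of complex IV. The 95% interval of the change lay within 0.5 log2 units of no change for 48 of 59 members at 15 min, 53 at 1 h, 52 at 6 h and 56 between insulin 6 h and insulin 1 h, against 29.5%, 34.6%, 37.3% and 37% of all rows.

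Complex I was the largest group, and all 27 of its members had a lower mean on the deposited scale at 15 min, 25 at 1 h and 24 at 6 h, with median changes of -0.16, -0.14 and -0.11. Of its 6 core subunits here, which carry the NADH site and the iron-sulfur clusters, 6 had lower means at 15 min and 5 at 1 h and 6 h. Ndufs8, an iron-sulfur core subunit, had log2 signals of 2.99, 3.09 and 2.94 after saline, 2.80 and 2.76 at 15 min, 2.77, 2.84 and 2.79 at 1 h, and 2.96, 2.89 and 2.78 at 6 h. The 15 min and 1 h libraries all lay below the saline libraries, and those at 6 h overlapped them. Its log2 change was -0.23 ± 0.07 at 15 min and -0.21 ± 0.07 at 1 h (SE; adjusted p = 0.205 and 0.171, limma). Ndufs7, which passes electrons on towards ubiquinone, had 1.90, 1.92 and 1.81 after saline, 1.76 and 1.55 at 15 min, 1.71, 1.68 and 1.63 at 1 h, and 1.78, 1.81 and 1.79 at 6 h. It differed from saline by -0.22 at 15 min and -0.21 at 1 h, with no overlap at either time (adjusted p = 0.228 and 0.193, limma). Ndufv2, the flavoprotein core subunit beside the NADH site, had 1.44, 1.47 and 1.50 after saline, 1.32 and 1.30 at 15 min, 1.25, 1.21 and 1.31 at 1 h, and 1.39, 1.32 and 1.29 at 6 h. All 8 insulin libraries were below all saline libraries, and its change of -0.21 at 1 h had the smallest p of complex I in the F test (adjusted p = 0.127 at 1 h and 0.292 in the F test, limma).

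Its partner Ndufv1, which binds NADH and FMN, stayed close to saline at the later times. Ndufv1 had 3.88, 3.86 and 3.90 after saline, 3.81 and 3.68 at 15 min, 3.89, 3.94 and 3.85 at 1 h, and 3.87, 3.91 and 3.90 at 6 h. The changes were -0.13 at 15 min, with no overlap, then 0.01 at both 1 h and 6 h, with overlap at both, and the 95% interval at 1 h ran from -0.12 to 0.15. Ndufs1, the largest core subunit, differed by -0.10, -0.09 and -0.05 at 15 min, 1 h and 6 h (adjusted p = 0.635, 0.664 and 0.892, limma). Whether Ndufv2 and Ndufv1 differed in their change was not tested.

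Among the accessory subunits, which surround the core and are needed for its assembly or stability, 21 of 21 were lower at 15 min, 20 at 1 h and 19 at 6 h. Ndufv3 had 1.28, 1.34 and 1.30 after saline, 1.15 and 0.85 at 15 min, 1.18, 1.10 and 1.15 at 1 h, and 1.18, 1.20 and 1.20 at 6 h. Every insulin library was below every saline library; its change at 15 min was -0.31 (95% interval -0.50 to -0.11, adjusted p = 0.180, limma). Ndufa12 had 0.76, 0.87 and 0.69 after saline, 0.52 and 0.62 at 15 min, 0.54, 0.42 and 0.62 at 1 h, and 0.65, 0.37 and 0.52 at 6 h. It too had no overlap at any time, and of all members it had the smallest p at 6 h, with a change of -0.26 ± 0.09 (SE; adjusted p = 0.702, limma). Ndufa5 had 1.73, 1.66 and 1.65 after saline, 1.59 and 1.34 at 15 min, 1.41, 1.45 and 1.31 at 1 h, and 1.54, 1.11 and 1.59 at 6 h. It was named after its values were seen, for its change of -0.29 at 1 h (adjusted p = 0.288, limma), which passed the threshold in 1 alternative, the one that left out both libraries that stood apart. Ndufa9, at the junction of the complex's arms, was lower by -0.29, -0.18 and -0.11 at 15 min, 1 h and 6 h. Ndufs4, whose loss gives mice a Leigh-like brain disease, differed by -0.06, -0.14 and -0.16, and Ndufb8, of the membrane arm, by -0.10, -0.03 and -0.10. The smallest adjusted p of these 3 at any time was 0.230, for Ndufa9 at 15 min (limma).

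**Figure D3:**
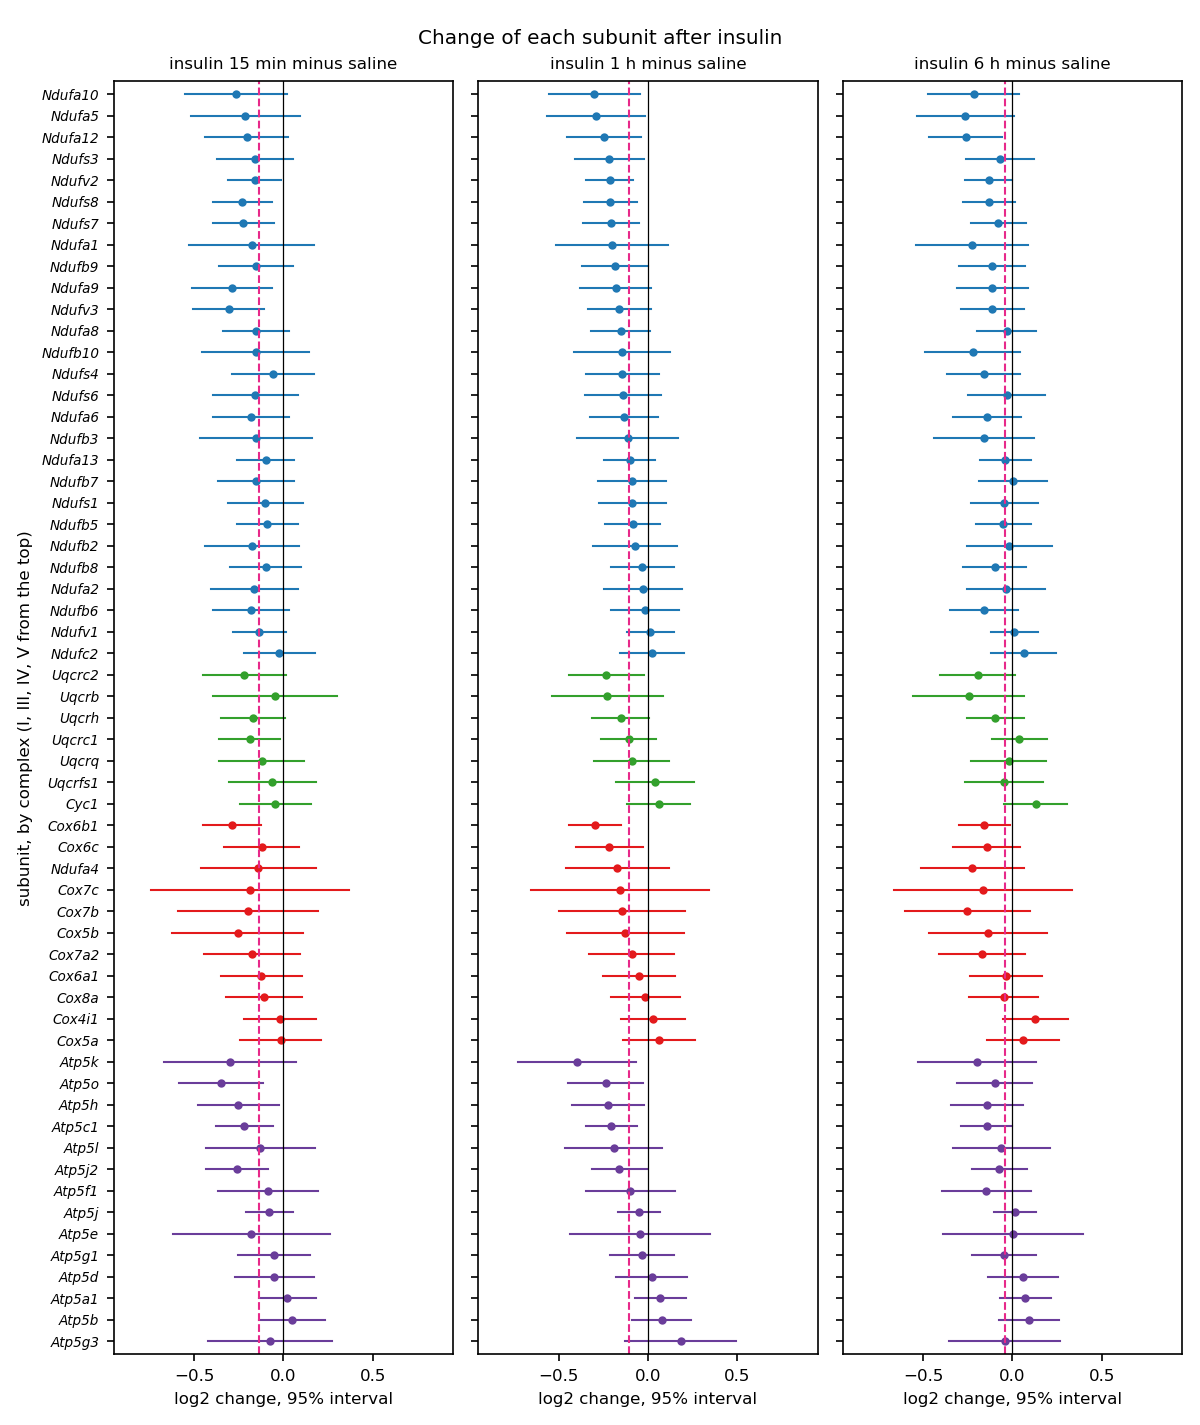
Log2 change of each subunit at 15 min, 1 h and 6 h against saline (points) with its 95% interval (lines) from limma, coloured by complex, subunits listed as in the plot by library; the dashed line is the median of all rows, at -0.14, -0.11 and -0.04. Most intervals span 0, and the widest belong to Cox7c.

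Complex III hands electrons from ubiquinol to cytochrome c, and all 7 of its members had lower means at 15 min, then 5 at both 1 h and 6 h, on the deposited scale. Its core proteins Uqcrc1 and Uqcrc2 carry no redox group. Uqcrc1 had 2.40, 2.37 and 2.31 after saline, 2.27 and 2.07 at 15 min, 2.24, 2.22 and 2.29 at 1 h, and 2.37, 2.47 and 2.36 at 6 h. The 15 min and 1 h libraries lay below saline and those at 6 h did not; the changes were -0.19 at 15 min (adjusted p = 0.293), -0.11 at 1 h (0.494) and 0.04 at 6 h (0.884), and the difference of 6 h from 1 h was 0.15 (0.467; all limma). Uqcrc2 had 1.82, 1.83 and 1.87 after saline, 1.68 and 1.56 at 15 min, 1.62, 1.57 and 1.63 at 1 h, and 1.77, 1.41 and 1.75 at 6 h, so that no insulin library reached the saline values. Of the electron carriers, Uqcrfs1, the Rieske iron-sulfur protein, differed by -0.06, 0.04 and -0.05, and Cyc1, cytochrome c1, by -0.05, 0.06 and 0.13 at 15 min, 1 h and 6 h (adjusted p from 0.721 to 0.906, limma). Cyc1 had its highest value, 4.52, in 6 h replicate 2, where the saline libraries had 4.33, 4.31 and 4.26. Uqcrh, the hinge protein that helps cytochrome c dock, differed by -0.17, -0.15 and -0.10.

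Complex IV, cytochrome c oxidase, held the member with the smallest p of all 59. Cox6b1, which faces the intermembrane space and links the monomers of the enzyme, had log2 signals of 3.06, 3.12 and 3.01 after saline, 2.83 and 2.72 at 15 min, 2.77, 2.80 and 2.72 at 1 h, and 3.00, 2.86 and 2.87 at 6 h. The 15 min and 1 h libraries were well below saline, and the 6 h libraries lay between them and saline with no overlap with either saline or 1 h. Its log2 change was -0.29 at 15 min (95% interval -0.45 to -0.13, adjusted p = 0.143), -0.30 at 1 h (-0.44 to -0.15, adjusted p = 0.0691) and -0.16 at 6 h (-0.30 to -0.01, adjusted p = 0.714), and the adjusted p of the F test was 0.159 (limma). At 1 h it was 0.81 of its saline level. Without 6 h replicate 2 the adjusted p at 1 h was 0.0423, and without both libraries that stood apart it was 0.0445 (limma). Neither library is in the 1 h or saline group, but both enter the shared estimate of the spread and the filter on low rows. Over the 22 alternatives run, the adjusted p of Cox6b1 at 1 h ran from 0.0423 to 0.392 and its log2 change from -0.33 to -0.17, the value nearest 0 with each library centred on the median of its kept rows. Between insulin 6 h and insulin 1 h, Cox6b1 was higher by 0.14 ± 0.07 (SE; adjusted p = 0.462, limma).

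Of the 11 members of the oxidase, 11 had lower means at 15 min and 9 at both 1 h and 6 h. Cox4i1, the regulatory subunit that binds ATP, had 4.48, 4.47 and 4.48 after saline, 4.55 and 4.36 at 15 min, 4.49, 4.48 and 4.54 at 1 h, and 4.52, 4.76 and 4.53 at 6 h. Its changes were -0.02, 0.03 and 0.13 (adjusted p = 0.936, 0.899 and 0.730, limma), and its highest value was that of 6 h replicate 2. Cox5a differed by -0.02, 0.06 and 0.06, Cox8a by -0.11, -0.01 and -0.05, and Cox5b, which binds zinc, by -0.26, -0.13 and -0.14 with wider intervals. Cox7c had 2.51, 2.50 and 2.46 after saline, 2.64 and 1.97 at 15 min, 2.46, 2.24 and 2.31 at 1 h, and 2.59, 1.77 and 2.62 at 6 h. Replicates of 1 time thus lay on both sides of saline, with 15 min replicate 3 and 6 h replicate 2 low. Ndufa4, once assigned to complex I and now counted with this complex, showed the same low value in 6 h replicate 2, 2.36, where the saline libraries had 2.89, 2.98 and 2.84, and its changes were -0.14, -0.17 and -0.22 (adjusted p = 0.672, 0.571 and 0.721, limma).

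Complex V had 12 of 14 members with lower means at 15 min, 10 at 1 h and 9 at 6 h. The catalytic head carries the nucleotide sites on Atp5b, the beta subunit, and Atp5a1, the alpha subunit. Atp5b had 6.22, 6.20 and 6.14 after saline, 6.25 and 6.21 at 15 min, 6.27, 6.22 and 6.29 at 1 h, and 6.38, 6.21 and 6.23 at 6 h. Atp5a1 had 5.43, 5.46 and 5.41 after saline, 5.50 and 5.41 at 15 min, 5.49, 5.48 and 5.54 at 1 h, and 5.49, 5.46 and 5.57 at 6 h. Both had means slightly above saline at all 3 times, by 0.05, 0.08 and 0.09 for Atp5b and 0.02, 0.07 and 0.07 for Atp5a1, and none of these differences passed (adjusted p from 0.646 to 0.916, limma). The 95% interval of Atp5a1 at 1 h ran from -0.07 to 0.21.

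Atp5c1, the gamma subunit that turns inside this head, had means below saline instead. It had 2.31, 2.32 and 2.39 after saline, 2.17 and 2.08 at 15 min, 2.12, 2.15 and 2.14 at 1 h, and 2.29, 2.11 and 2.19 at 6 h. All insulin libraries were below all saline libraries, and the changes were -0.22, -0.21 and -0.14 (adjusted p = 0.209, 0.167 and 0.714, limma). Among the stator subunits, which hold the head still, all 4 had lower means at 15 min and 1 h and 3 at 6 h. Atp5o, the stator subunit OSCP, had 2.04, 2.12 and 2.03 after saline, 1.92 and 1.51 at 15 min, 1.87, 1.79 and 1.81 at 1 h, and 1.99, 1.91 and 1.98 at 6 h. Its change at 15 min, -0.35 (95% interval -0.58 to -0.11, adjusted p = 0.187, limma), was the most negative of the 59 and rested mostly on replicate 3. The rows of Atp5c1 and Atp5o are uncertain because intronless copies share much of their sequence.

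The small membrane subunits e, f and g, which shape the dimer of the enzyme, were lower than saline with no overlap at 15 min and 1 h in 3 of 3 cases, where 31.1% and 21.5% of all rows were; the rows of Atp5k and Atp5l are uncertain because intronless copies share their sequence. Atp5k, subunit e, had 2.37, 2.40 and 2.29 after saline, 2.26 and 1.85 at 15 min, 2.02, 1.68 and 2.16 at 1 h, and 2.26, 1.93 and 2.28 at 6 h. At 1 h it was the most negative member, at -0.40 ± 0.15 (SE; adjusted p = 0.232, limma), and its 1 h libraries were far apart. Atp5j2, subunit f, differed by -0.26, -0.16 and -0.07 (adjusted p = 0.186, 0.303 and 0.788, limma). The c ring genes Atp5g1 and Atp5g3 encode the same mature protein: Atp5g1 differed by -0.05, -0.03 and -0.05, and Atp5g3 by -0.07, 0.18 and -0.04, with Atp5g3 at 4.03, 4.12 and 4.10 in the 1 h libraries and 3.90, 3.91 and 3.89 in the saline libraries. Atp5g3 was thus higher than saline at 1 h with no overlap, but its adjusted p was 0.573 (limma). Atp5e, the epsilon subunit of the head, had 1.49 to 2.26 in insulin libraries and 1.91 to 2.08 in saline libraries.

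Members whose libraries did not overlap between insulin and saline were counted on the deposited scale only. The counts were not repeated with another scaling. With each library centred on the median of its kept rows, the members with a lower mean fell from 57 to 27 of 59 at 15 min. At 1 h they fell from 49 to 30. At 15 min, 23 of 59 members (39%) had both insulin libraries below all saline libraries, as did 31.1% of all rows. At 1 h, 30 of 59 (50.8%) did, against 21.5% of all rows, and at 6 h 11 of 59 (18.6%), against 8.78%. The opposite, with all insulin libraries above saline, held for 0 of 59 members at 15 min (6.96% of all rows), 5 at 1 h (6.27%) and 2 at 6 h (4.31%). All 8 insulin libraries lay below all 3 saline libraries for 9 members, or 15.3%, where 4.21% of all rows did so: Ndufa5, Ndufa12, Ndufv2, Ndufv3, Uqcrc2, Cox6b1, Atp5c1, Atp5k and Atp5o. Of these, Atp5c1, Atp5k and Atp5o have intronless copies with rows of their own, so their rows are uncertain. No member, 0 of 59, lay above in all of them, as 0.718% of all rows did. Between insulin 6 h and insulin 1 h, 1 member had all its 6 h libraries below those at 1 h and 9 had them above, against 3.17% and 13.3% of all rows. The median residual SD of the members stood at the 12.9th percentile of all rows, and its part in these counts was not tested.

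**Figure D4:**
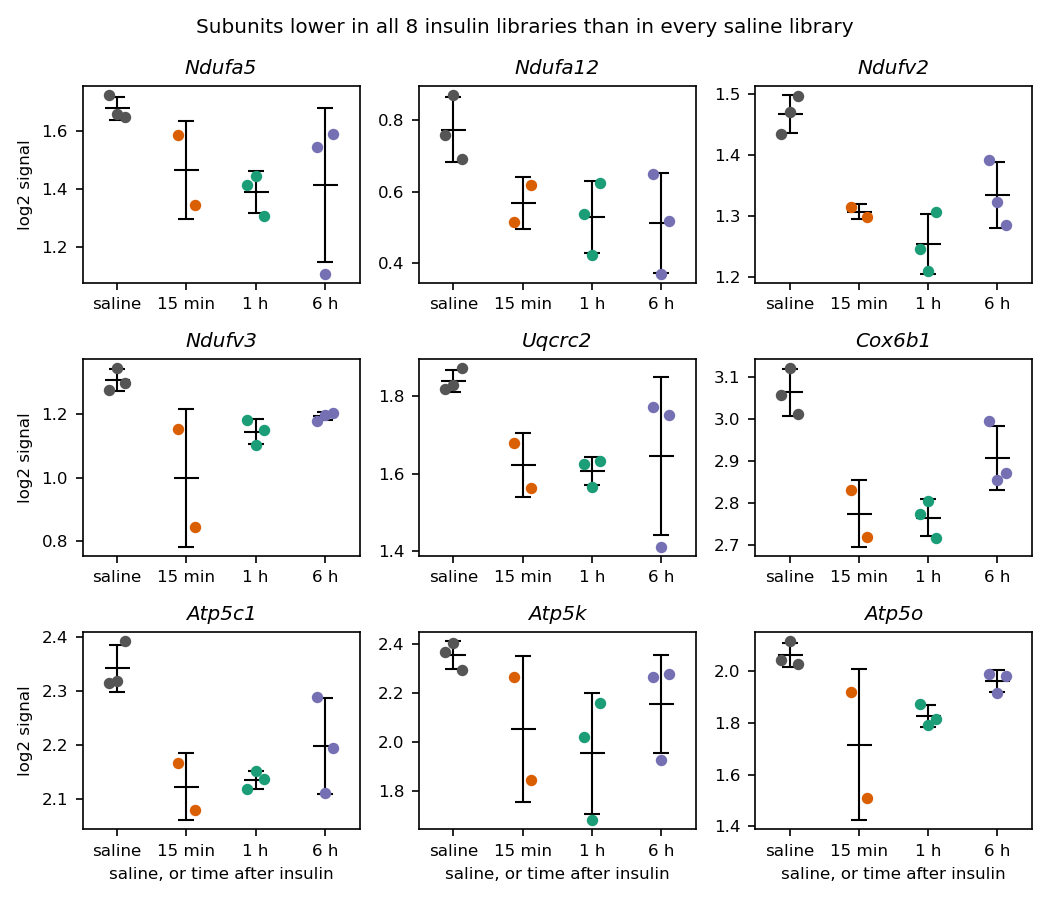
Log2 signals, on the deposited scale, of the 9 subunits whose 8 insulin libraries all lay below the 3 saline libraries. Points are libraries, horizontal marks the means and bars the SD (n = 3, or 2 at 15 min), each panel with its own axis. The 15 min points of Ndufv3, Atp5k and Atp5o lie far apart, with replicate 3 the lower.

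The rows of intronless copies gave a second reading of the same sequences. With a threshold of 95% identity over at least 150 bases, 10 of 59 members had such a copy with a table row: Ndufs3, Uqcrb, Cox6c, Atp5c1, Atp5f1, Atp5g1, Atp5h, Atp5k, Atp5l and Atp5o. How the authors' counting shared reads between gene and copy is not given in the sources used here, so the rows of these genes, and the changes given for them, are uncertain. For Atp5l the copy Gm10221 had a mean log2 signal of 7.17, and for Atp5h the copy Gm10250 had 7.04. At 15 min the changes of gene and copy were -0.35 for Atp5o and -0.04 for Gm5436, and -0.25 for Atp5h and 0.14 for Gm10250. At 1 h they were -0.22 for Ndufs3 and -0.01 for Gm12251, and -0.40 for Atp5k and -0.12 for Atp5k-ps2. Gm8722, the copy of Atp5c1, was lower like the gene, by -0.36 and -0.40 at 15 min and 1 h. Other copies were lower at 1 h too: -0.36 for Gm16399 beside -0.22 for Cox6c, and -0.21 for Gm12231 beside -0.10 for Atp5f1. Uqcrb changed by -0.23 at 1 h, and its copies Gm16089, Gm2962 and Gm5457 by -0.61, -0.22 and 0.05. Atp5l changed by -0.19 at 1 h and its copy Gm10221 by 0.16. None of the copies' changes named here passed the test (adjusted p from 0.0618, for Gm16089 at 1 h, to 0.962, limma). The differences between gene and copy were not tested.

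**Figure D5:**
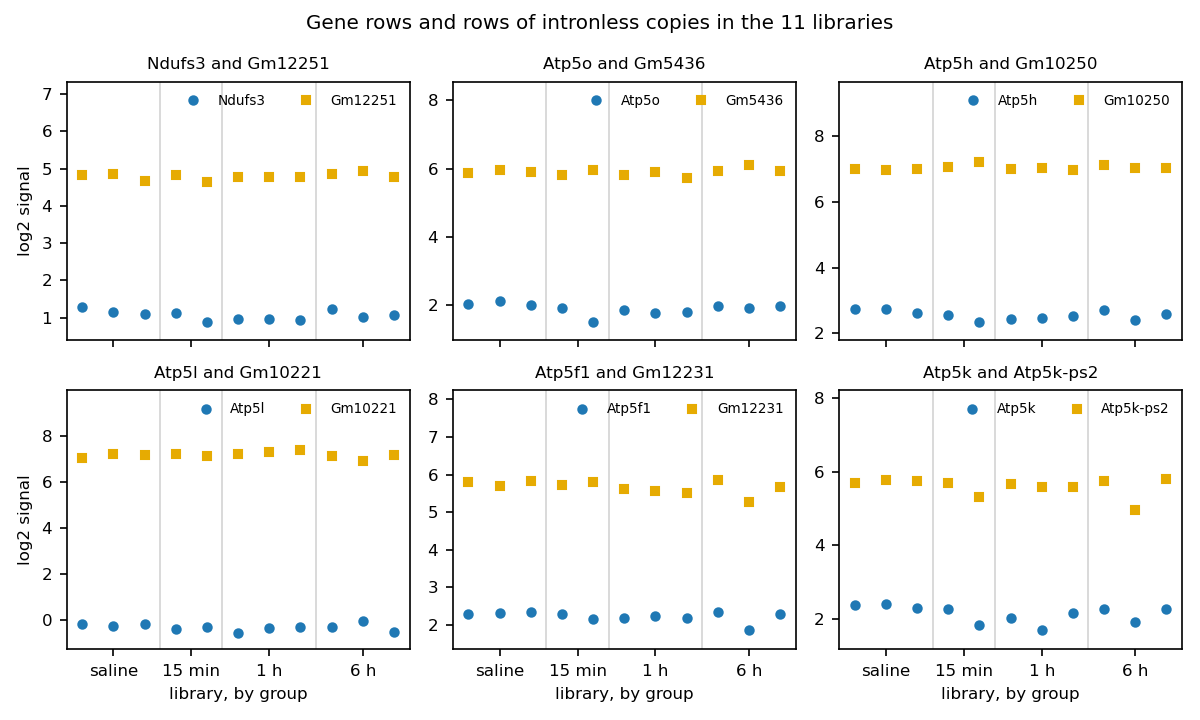
Log2 signals of 6 subunit genes (circles) and 1 intronless copy of each (squares) in the 11 libraries, by group. Levels of gene and copy are not compared, since a scale per length is not stated; Atp5k-ps2 and Gm12231 have their lowest value in 6 h replicate 2.

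Promoter sequence was compared because several of these genes are textbook targets of the same factors. RefSeq promoter windows (GRCm38.p6) were found for 49 of 59 members. Exact matches to 4 motifs were sought on both strands. NRF1 (GCGCA and GCGC with any 1 base between them) occurred in 10 of the 49 windows (20.4%), against 6.60% of 17492 windows of protein-coding genes of the same length. The ETS motif of GABPA (CCGGAAG) occurred in 12 (24.5% against 11.9%), YY1 (ATGGCGG) in 8 (16.3% against 5.41%) and ERRa (CAAGGTCA) in 2 (4.08% against 1.34%). At least 1 motif was present in 25 windows (51.0% against 22.1%), each window counted once where motifs overlapped. The promoters of Cox6b1, the member with the smallest p, and of Atp5k, the most negative at 1 h, are shown as the 200 bases before the start, both on the minus strand, at chr7:30626115-30626314 and chr5:108434400-108434599. Capitals mark an ETS motif, read on the other strand, in Cox6b1 and an NRF1 motif in Atp5k.
Cox6b1: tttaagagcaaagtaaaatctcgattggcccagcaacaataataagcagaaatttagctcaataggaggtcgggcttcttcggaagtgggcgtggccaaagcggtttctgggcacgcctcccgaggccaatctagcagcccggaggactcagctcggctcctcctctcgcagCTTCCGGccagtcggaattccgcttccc
Atp5k: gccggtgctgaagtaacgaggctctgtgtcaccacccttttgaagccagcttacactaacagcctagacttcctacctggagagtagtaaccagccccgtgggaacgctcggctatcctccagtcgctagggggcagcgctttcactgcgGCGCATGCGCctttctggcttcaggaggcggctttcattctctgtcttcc
These are matches of letters and say nothing of binding. Of the members below saline in all insulin libraries, Ndufa12, Ndufv2, Ndufv3 and Atp5c1 had none of the 4 motifs in their windows. Ndufa5, Cox6b1, Atp5k and Atp5o had at least 1, and Uqcrc2 had no window.

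For the genes around the complexes the count of calls was also 0. None of the 44 assembly factors, 5 genes of complex II and cytochrome c, 18 further nuclear subunits, 7 tissue-specific isoforms with a row tested, 18 genes of the tricarboxylic acid cycle, 76 mitochondrial and 75 cytosolic ribosomal protein genes, 15 regulators or 13 genes encoded by mitochondrial DNA passed at any time (limma, adjusted p under 0.05). Complex II holds no member here; its subunit Sdhb, an iron-sulfur protein, had 1.16 and 1.05 at 15 min and 1.20, 1.13 and 1.11 at 1 h, against 1.34, 1.38 and 1.32 after saline. Its changes of -0.24 and -0.20 (adjusted p = 0.187 and 0.184) stood beside 0.01 and 0.04 for Sdha, the flavoprotein. Cycs, cytochrome c itself, differed by 0.03, -0.03 and -0.18 at 15 min, 1 h and 6 h. The further ATP synthase subunit Usmg5 differed by -0.22, -0.22 and -0.20, and Cox7a2l, which joins complexes III and IV, by -0.11, -0.01 and -0.08. The list encoded by mitochondrial DNA had medians of 0.22, 0.08 and 0.27, where the nuclear members had -0.16, -0.13 and -0.10; this difference was not tested.

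Of the regulators, Ppargc1a, the coactivator PGC-1alpha that drives expression of this pathway, came nearest to the threshold. It had 0.11, 0.00 and 0.41 after saline, -0.31 and -0.08 at 15 min, -0.77, -0.59 and -0.25 at 1 h, and -0.28, -0.29 and -0.47 at 6 h. All insulin libraries were below all saline libraries, and the changes were -0.36, -0.71 and -0.52 (adjusted p = 0.342, 0.0629 and 0.642, limma). The factors Nrf1, Gabpa and Tfam differed by -0.15, 0.01 and -0.02 at 1 h (adjusted p = 0.570, 0.977 and 0.940, limma).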

How the data were processed

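RNA of the hippocampus was read from both ends after a stranded total RNA kit, per the labels' protocols; whether counting used strand is not given in the sources used here. Tools named are bcl2fastq and Partek 6.7, with build GRCm38, per the submitters' processing notes. The authors deposited 1 table of log2 signals per gene symbol; judged from the values, it was quantile-normalized by the authors, since every library shares a median of -3.20. Whether signals are per length is not stated, so levels of different genes were not compared, and depth is unknown. Values were present for 32037 to 33653 of 46202 rows per library; missing cells were left missing.

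Rows in the lowest 40% by mean were left out, which kept 27721 rows and all 59 members. A 4-group model of all 11 libraries was fitted with limma 3.58.1 in R 4.3.3 (empirical Bayes with trend, two-sided), with Benjamini-Hochberg adjustment over all rows tested and a threshold of 0.05. The comparisons with saline share their saline libraries. The fit was tested on simulated data with independent normal noise. Some rows outside the members were given larger shifts as well, and no shift shared by the rows of a library was simulated. With a log2 shift of -0.25 set in every member, 3, 2 and 4 of 59 passed at 15 min, 1 h and 6 h. With a shift of -0.5, 30, 36 and 33 passed. Shifts of the smaller size were thus mostly missed in the simulated data, which lack the shifts between libraries seen here. Alternatives were other filters and scalings, a pseudocount, smaller fits, no variance trend, a replicate block and leaving out each library; removing GC or length class medians and leaving out both libraries that stood apart were chosen after seeing the data. Named members are the 4 with the smallest p per comparison, the smallest F test p per complex and a panel by role; Uqcrc2, Ndufa5, Atp5k and those in the copy comparison were added after their values were seen. The members and lists were chosen with earlier results of these data known. Copies were found by aligning GENCODE vM21 transcripts. A gene outside the members is not reported here. Kept rows without missing values, 25771, gave the medians used for centring.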

Additional observations from a re-analysis of the deposited data

How the results depend on the processing

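The median of the members relative to all rows at 15 min, -0.0205 as reported, was -0.105 with cyclic loess scaling and -0.113 with a pseudocount of 1. It ran from -0.102 (without 15 min replicate 1) to 0.0626 (without 15 min replicate 3) when single libraries were left out, and was 0.0625 without 15 min replicate 3 and 6 h replicate 2. Members past the threshold at 1 h were 0 as reported, 0 to 1 when single libraries were left out (1 without 6 h replicate 2) and 2 without 15 min replicate 3 and 6 h replicate 2. In the other comparisons the count was 0 under every alternative run, and the medians at 1 h, 6 h and 6 h against 1 h moved by less than the spread between libraries, 0.08. Without saline replicate 2 the medians at 15 min and 1 h turned to 0.00975 and 0.0101, and that at 6 h was -0.0145; with length class medians removed the median at 15 min turned to 0.0198, and for 6 h against 1 h it turned to 0.0242 with cyclic loess and 0.0268 with a pseudocount of 1. With the replicate number as a block the count of members past the threshold was 0 in all 5 tests and the smallest adjusted p at 1 h was 0.0709 (limma); the block changed no call. Whether replicate numbers pair the libraries was not settled. Deviations of same-numbered libraries correlated by -0.06 to 0.24 (median 0.09), over 0.1 in 7 of 15 pairs. Those of differently numbered libraries correlated by -0.25 to 0.25 (median -0.06), over 0.1 in 5 of 30 pairs. Of 11 libraries, 6 correlated best with their own number. Groups of 2 or 3 libraries, a shift between libraries in the median of the kept rows, and an unknown depth limit what changes of this size can show.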
